A study of Homo sapiens with 25 samples.

Results

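A2780 cells carrying a lentivirus that overexpresses the primary transcript of miR-450b were compared with A2780 cells carrying the empty lentivirus vector, by small RNA sequencing of 3 libraries per group. A2780 is an established human ovarian carcinoma cell line, and the empty vector is labelled pLVX. The human miRNAs described are those whose mean over the 6 libraries reached 10 RPM, that is reads per 1000000 reads of miRNAs. This rule took 364 of the 1033 human rows in the table of mature miRNAs, which has 1410 rows in all, and 255 of the 557 human precursors. The members held 99.866% to 99.929% of the reads of a library, and the other 669 human mature rows lay under the filter. At its edge, miR-190a* (mean 10.02 RPM) and miR-92a-2* (10.31) were just inside, and miR-186* (9.997) and miR-195* (9.781) just outside. A row under 10 RPM in 1 group could pass through the other group. The labels name 3 biological replicates but not whether these were separate transductions or cultures, so the p-values measure the spread between these libraries, which may be technical. Each group carries 1 vector, so the miR-450b product and any other difference between the cell populations cannot be told apart.

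A miRNA gene is transcribed as a long primary transcript, from which Drosha cuts a hairpin precursor and Dicer a short duplex. Usually 1 strand of the duplex is kept in an Argonaute protein. A star in a name marks the strand taken as the lesser, which need not be the less abundant here, as for miR-675*. The bases near the 5′ end, the seed, pair with target mRNAs, so miRNAs with the same seed can act on overlapping targets. miR-450b is encoded on the X chromosome among miR-450a, miR-542, miR-503 and miR-424. let-7 miRNAs repress growth-promoting genes such as RAS, MYC and HMGA2 and are themselves restrained by LIN28, which binds their precursors.

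The sequences that carry the comparison are from RefSeq (GRCh38.p14), written 5′ to 3′. The first is the hairpin of MIR450B, on the minus strand at chrX:134540185-134540262, with capitals for its 5′ and 3′ mature arms (the rows miR-450b and miR-450b*). In all the other sequences the capitals mark the seed, bases 2 to 8.
MIR450B hairpin: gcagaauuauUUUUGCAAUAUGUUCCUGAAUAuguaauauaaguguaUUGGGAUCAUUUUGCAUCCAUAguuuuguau
miR-450b: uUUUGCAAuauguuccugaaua
miR-450a: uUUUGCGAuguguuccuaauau
miR-450b and miR-450a differ at 6 positions counted from 1 at the 5′ end, A7G, A10G, G18A, A20U, U21A and A22U, of which A7G lies in the seed. The miRNAs that rose include 9 with a common seed.
let-7a: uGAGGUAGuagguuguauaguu
let-7b: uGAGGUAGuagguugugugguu
let-7c: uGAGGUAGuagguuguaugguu
let-7d: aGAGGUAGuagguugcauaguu
let-7e: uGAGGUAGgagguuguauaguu
let-7f: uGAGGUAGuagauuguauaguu
let-7g: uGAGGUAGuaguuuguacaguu
let-7i: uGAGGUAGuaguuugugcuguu
miR-98: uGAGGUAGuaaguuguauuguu
let-7c differs from let-7a by A19G, let-7e from let-7a by U9G, and let-7b from let-7a by A17G and A19G, so reads with a sequencing error can be counted for a relative. Shown next are miRNAs among the 12 largest falls and pairs in which 1 seed sister fell and another was not called. miR-582 and miR-629, also among the largest falls, are named without a sequence, because which arm their row holds was not sure.
miR-34a: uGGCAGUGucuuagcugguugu
miR-221: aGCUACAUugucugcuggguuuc
miR-222: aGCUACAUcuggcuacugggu
miR-145: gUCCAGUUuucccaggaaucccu
miR-551b: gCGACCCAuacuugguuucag
miR-335-5p: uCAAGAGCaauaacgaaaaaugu
miR-335-3p: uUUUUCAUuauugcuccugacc
miR-148a: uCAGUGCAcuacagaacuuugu
miR-148b: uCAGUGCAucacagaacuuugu
miR-99a: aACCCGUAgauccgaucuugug
miR-99b: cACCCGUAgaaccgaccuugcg
miR-106a: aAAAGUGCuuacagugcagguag
miR-17: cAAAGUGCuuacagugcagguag
miR-148b differs from miR-148a by C9U and U10C, both outside the seed. miR-17 differs from miR-106a by A1C alone.

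In total 59 miRNAs passed an adjusted p of 0.05 in a limma fit on log2(RPM + 10), 16.2% of the 365 rows tested (the 364 members and 1 viral row). Of these, 17 rose (4.66%) and 42 fell (11.5%) in cells with the miR-450b vector. Groups without overlap were seen for 114 rows (31.2%), and for 58 of the 59 called, miR-363 being the exception. The 17 that rose held 0.878%, 1.64% and 1.27% of the reads of the empty vector libraries and 7.82%, 7.06% and 5.22% of those with the miR-450b vector. The 42 that fell held 7.22%, 7.55% and 4.79% against 1.68%, 1.98% and 1.37%. The rises were 12 rows of the let-7 family, both arms of miR-450b, miR-383 and both arms of miR-675. No member that was called stood at 0 in any of the 6 libraries.

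No read totals came with these shares, and their depth is unknown. The empty vector libraries correlated with each other across miRNAs at r = 0.952 to 0.979 and the miR-450b vector libraries at 0.976 to 0.99. Between the groups r was 0.874 to 0.953, lowest for empty vector replicate 1 (0.874 to 0.9), and without that library 51 miRNAs were called, 17 higher and 34 lower. The median log2 change of all rows was -0.20. Median-of-ratios scaling moved it by 0.17, to -0.02, and raised the share of calls that were higher from 28.8% to 38.9%, with all 17 rises and 33 of the 42 falls still called. Libraries of A2780 with a miR-450a vector share these controls, and their levels are given beside some results without a test. They stood far apart: miR-199a-3p, among the most abundant miRNAs here, was at 268.6, 174 and 177.5 RPM in them against at least 64941 RPM in each of the 6 libraries compared, so whether they hold the same cells was not settled.

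**Figure D1:**
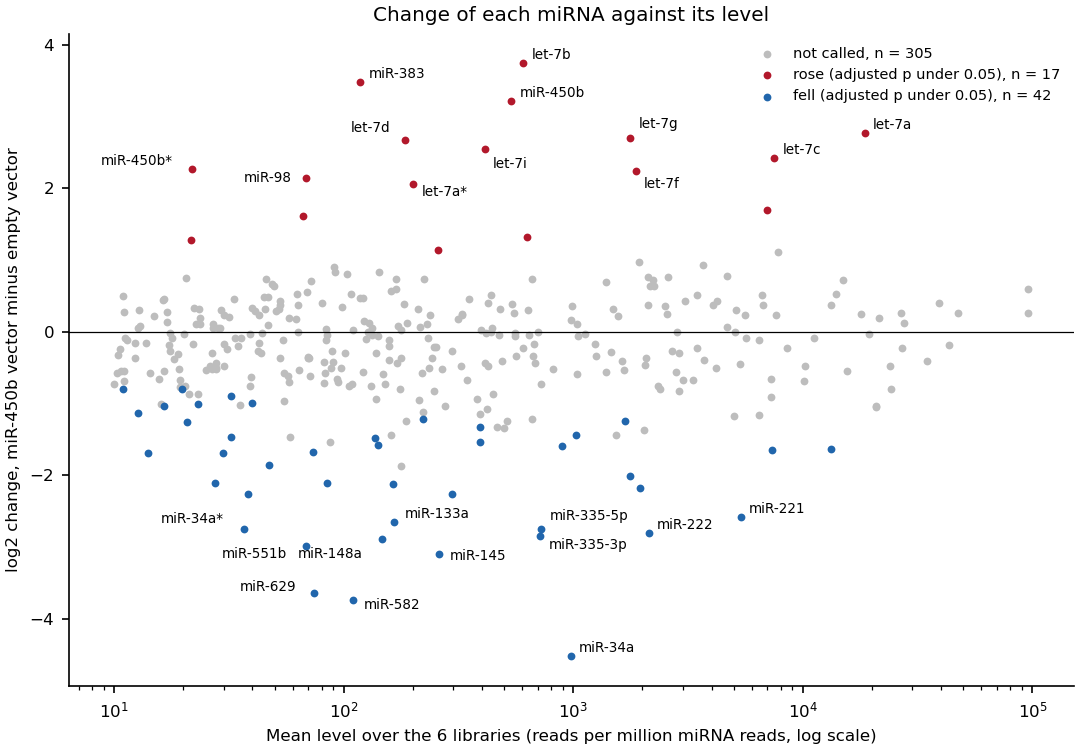
Each point is 1 of the 364 human miRNAs, with its mean level over the 6 libraries (RPM, log scale) on the x axis and its log2 change on the y axis. The 17 that rose (red) and 42 that fell (blue) span low to high levels, with the 12 largest of each named.

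miR-450b itself stood at 71.6, 72.4 and 131.2 RPM with the empty vector and at 547.4, 850.3 and 1544 RPM with its own vector. All 3 vector libraries lay above all 3 controls, and the mean was 10.69-fold higher (log2 change 3.21 ± 0.42 SE, limma adjusted p = 0.000373). Its starred arm stood at 0.961, 0.0822 and 0.889 RPM with the empty vector and at 25.03, 44.9 and 59.6 RPM with the vector (2.27 ± 0.26, adjusted p = 0.000222). Both arms of the overexpressed hairpin were thus higher in every vector library. The main arm made up 98.67%, 99.89% and 99.33% of the hairpin's reads in the controls and 95.63%, 94.98% and 96.28% with the vector. These shares did not overlap, but the limma fit of the arm ratio did not call them (adjusted p = 0.271), and on its log2(RPM + 10) scale the ratio had the opposite sign (0.94 ± 0.38), the starred arm being far below the 10 RPM added in the controls.

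The other miRNAs of the X-linked cluster were not called. miR-450a stood at 317.4, 404.6 and 446.4 RPM against 270.2, 504.1 and 444.6 RPM (log2 change 0.03 ± 0.33), so its groups overlapped. miR-503 differed by 0.06 ± 0.28 and miR-424 by -0.34 ± 0.39. miR-542 differed by 0.08 ± 0.44, miR-542* by 0.32 ± 0.30, miR-424* by 0.47 ± 0.35 and miR-450a-1* by 0.08 ± 0.20. miR-450a-2*, at 8.32, 15.65 and 13.15 RPM against 20.07, 19.81 and 21.88 RPM, was the uncalled member of this cluster whose groups did not overlap (0.46 ± 0.21, adjusted p = 0.194). As precursors, mir-450b rose by 3.26 ± 0.41, while mir-450a-1, mir-450a-2, mir-542, mir-503 and mir-424 were not called.

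The let-7 family was higher with the miR-450b vector. Of its 22 rows, 13 reached 10 RPM and 12 of these were called higher, against 4.66% of all rows. The median log2 change of the 13 was 2.24, against -0.20 for all. The 13 include let-7f-2*, which passed the filter only through the miR-450b vector group. let-7a, the most abundant, stood at 3307, 6472 and 4675 RPM in the controls and at 38366, 35057 and 23735 RPM with the miR-450b vector (2.77 ± 0.34, adjusted p = 0.000316). let-7b, which changed most, went from 58.5, 111.5 and 61.09 RPM to 1321, 1197 and 873.9 RPM, a 14.69-fold higher mean. let-7c stood at 1612, 3336 and 2202 RPM and then at 16165, 13161 and 8582 RPM (2.42 ± 0.37). For each of these 3 the lowest vector library was above the highest control.

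let-7e was the main arm of the family with the smallest change, from 2195, 4305 and 3489 RPM to 12929, 10611 and 8225 RPM (1.70 ± 0.34). miR-98, a let-7 relative on the X chromosome, rose from 13.63, 20.13 and 23.13 RPM to 93.3, 127.9 and 132.3 RPM. let-7d, let-7f, let-7g and let-7i rose by 2.24 to 2.70 on the log2 scale. Within the vector group let-7i was nearly level, at 719.4, 708.7 and 687.4 RPM, against 75.3, 130.1 and 141.8 RPM in the controls. For let-7a, let-7b, let-7c and let-7e the order of the 3 vector libraries was the same, with replicate 3 lowest, whereas miR-98 was lowest in replicate 1.

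Starred arms can tell let-7 hairpins apart where the main arms are near identical, although the row of let-7a* is shared by 2 gene copies. Those tested moved the same way. let-7c*, from the hairpin on chromosome 21, stood at 25.06, 34.95 and 23.11 RPM against 114.5, 94.9 and 105.1 RPM (1.62 ± 0.27, adjusted p = 0.00158). let-7a* rose by 2.06 ± 0.31 and let-7f-2*, at 6.21, 8.03 and 10.4 RPM against 23.34, 42.4 and 38.7 RPM, by 1.28 ± 0.24. With a control mean of 8.214 RPM, let-7f-2* passed the filter only through its level with the miR-450b vector. let-7e* was the tested row of the family that was not called (0.71, adjusted p = 0.127), although its groups did not overlap. No balance between the arms of a let-7 hairpin was called, with adjusted p = 0.475 for let-7a, 0.307 for let-7c and 0.263 for let-7e.

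The 9 miRNAs with the let-7 seed together held 11916 ± 3773 RPM in the controls and 64033 ± 13890 RPM with the miR-450b vector (SD, n = 3), a 5.37-fold higher sum whose groups did not overlap. let-7a, let-7c and let-7e were the 3 most abundant of them in both groups. The same sum stood at 8103, 15648 and 11997 RPM in the empty vector libraries, at 75705, 67724 and 48671 RPM with the miR-450b vector and at 44992, 32560 and 50393 RPM with the miR-450a vector, whose libraries also lay above the controls that both comparisons share. let-7d, let-7f, let-7g, let-7i and miR-98 had higher means in the miR-450a vector libraries than with the miR-450b vector, for let-7f 7909 RPM beside 3083 RPM. let-7c stood at 1898, 1055 and 1566 RPM there, within or below its range with the empty vector. All 12 let-7 calls held in every alternative that tested them, including each library left out in turn.

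**Figure D2:**
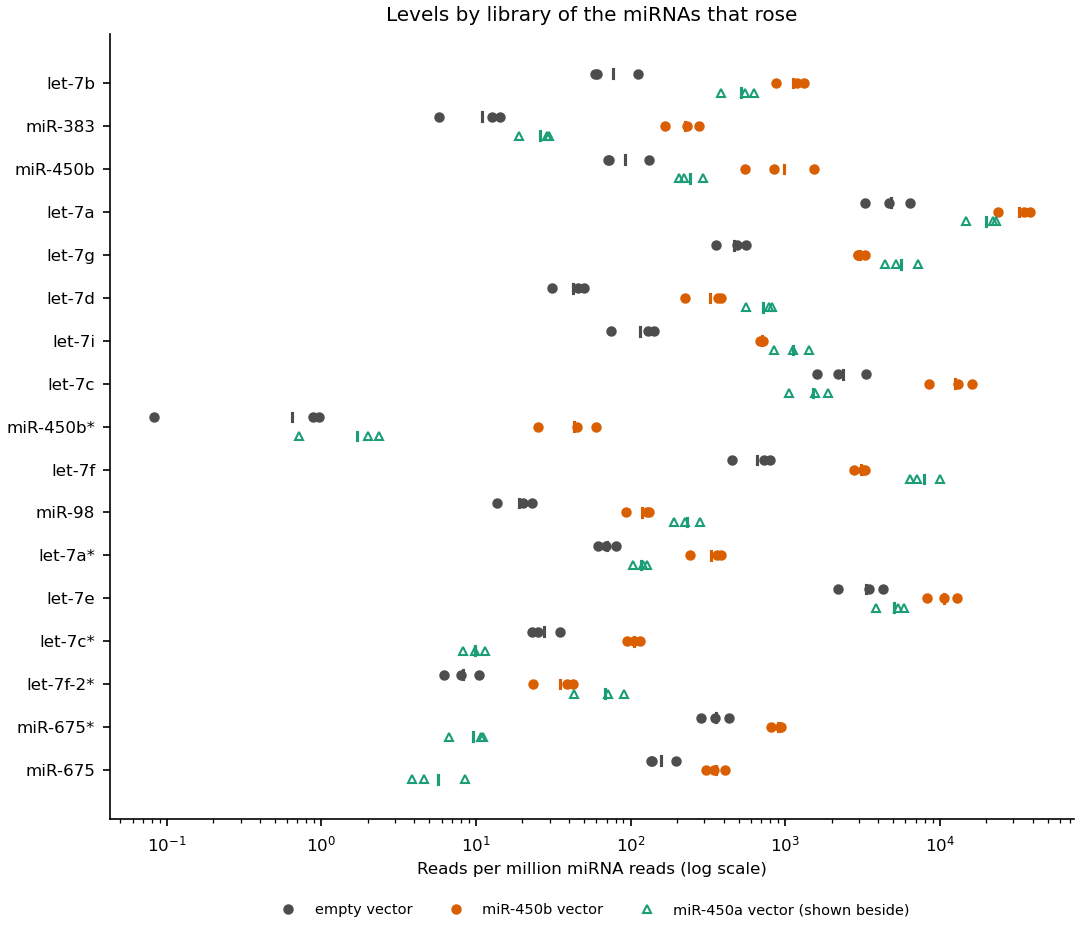
Each row is a miRNA that rose, with 1 point per library in RPM on a log axis and a short bar at the group mean. For all 17 the miR-450b vector libraries (orange) lie to the right of the empty vector libraries (grey); open triangles are the miR-450a vector libraries.

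The 5 other rises belonged to 3 hairpins, that of miR-450b included. miR-383, encoded in an intron of the sarcoglycan gene SGCZ, stood at 5.77, 14.3 and 12.71 RPM in the controls and at 277.3, 230.5 and 166.7 RPM with the miR-450b vector. This was a 20.58-fold higher mean with no overlap (3.48 ± 0.31, adjusted p = 5.43e-05). miR-675, cut from the imprinted noncoding RNA H19, stood at 198.1, 135.3 and 137.2 RPM against 408.5, 349.3 and 309.5 RPM (1.14 ± 0.30, adjusted p = 0.0272). miR-675* went from 285.2, 431.6 and 352.8 RPM to 816.3, 944.2 and 923.8 RPM (1.32 ± 0.29, adjusted p = 0.0109). Both arms lay higher in all 3 vector libraries, and neither arm in the miR-450a vector group exceeded 11.17 RPM. The call of miR-675 was lost without empty vector replicate 2 (1.05, adjusted p = 0.0795) or 3 (1.06, 0.0687) and without miR-450b vector replicate 1 (1.04, 0.137) or 2 (1.15, 0.13). That of miR-675* was lost without miR-450b vector replicate 2 (1.28, adjusted p = 0.0629).

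miR-34a, a direct transcriptional target of p53 that represses cell cycle genes, had the largest log2 fall of the miRNAs tested. It stood at 1978, 1849 and 1808 RPM in the controls and at 67.3, 90.9 and 61.2 RPM with the miR-450b vector, a 25.68-fold lower mean (log2 change -4.52 ± 0.29, adjusted p = 1.12e-05). miR-34a*, from the same hairpin, went from 127.5, 34.93 and 54.5 RPM to 0.945, 0.325 and 1.5 RPM. Neither arm overlapped between the groups. They were the 2 tested rows of the 12 of the miR-34 and miR-449 family. In the miR-450a vector libraries miR-34a stood between, at 393.9, 706.1 and 281.3 RPM.

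miR-221 and miR-222, X-linked neighbours that repress the cell cycle inhibitor CDKN1B, fell on both arms. miR-221 stood at 6793, 11491 and 9240 RPM in the controls and at 1947, 1556 and 1093 RPM with the miR-450b vector (-2.58 ± 0.33, adjusted p = 0.000356). miR-222 stood at 3325, 4701 and 3129 RPM and then at 723.7, 548.6 and 342.6 RPM (-2.80 ± 0.35). The lowest control was above the highest vector library for both. Their common seed summed to 12893 ± 3071 and 2071 ± 618.2 RPM (SD, n = 3), a 6.23-fold lower sum. The starred arms fell from 36.2, 59.09 and 56.5 RPM to 10.86, 8.66 and 6.36 RPM for miR-221* and by 2.26 ± 0.56 on the log2 scale for miR-222*, which was high in empty vector replicate 1 (170.7 RPM against 17.18 and 34.1). Without that library the change of miR-222* was -1.47, still called. Its call was lost with the replicate block, with no filter and with a pseudocount of 100 RPM (adjusted p up to 0.164 over the alternatives). Libraries of the miR-450a vector had miR-221 at 30319, 21494 and 25208 RPM, above both other groups.

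miR-143 and miR-145, neighbours on chromosome 5 known from smooth muscle and fibroblasts, fell on all 4 arms. miR-143 stood at 2854, 2585 and 4153 RPM against 666.1, 540.5 and 888.8 RPM (-2.18 ± 0.32, adjusted p = 0.000832). miR-145 stood at 833.7, 277 and 329.6 RPM against 53.2, 41.8 and 30.67 RPM (-3.09 ± 0.43, adjusted p = 0.000546). Empty vector replicate 1 was the high control for miR-145 but not for miR-143. The 4 arms together held 0.294% to 0.454% of reads in the controls and 0.0593% to 0.0932% with the miR-450b vector. In the miR-450a vector libraries they held 0.0033% to 0.00432%, below both other groups. The call of miR-143* was lost with no filter (adjusted p = 0.087) and with a pseudocount of 100 RPM. miR-199a, miR-199b and miR-214, also known from mesenchymal cells, had no call among 6 tested rows and held 17.6% to 25.4% of reads in the controls and 20.5% to 25% with the miR-450b vector.

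The muscle miRNAs miR-1 and miR-133a, each with 2 gene copies, on chromosomes 18 and 20, were lower too. miR-1 stood at 233.1, 229.6 and 348.8 RPM against 40.3, 46.3 and 80.8 RPM (-2.12 ± 0.34, adjusted p = 0.00136). miR-133a stood at 419, 286.8 and 174.3 RPM against 38.7, 49.04 and 23.24 RPM (-2.65 ± 0.38). The groups of both were separate, and miR-133a* fell by 1.13 on the log2 scale. These were the 3 tested rows of 9 in the muscle list, which together held 0.0543% to 0.0692% of reads in the controls and 0.00843% to 0.0111% with the miR-450b vector. In the miR-450a vector libraries that list held 0.00162% to 0.00321%, below both other groups. Whether other cells took part in these lower levels was not tested.

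Both arms of miR-335, which lies in an intron of the imprinted gene MEST, fell by similar amounts. miR-335-5p stood at 1555, 985.9 and 1258 RPM against 132, 166.9 and 256 RPM (-2.74 ± 0.34, adjusted p = 0.000319). miR-335-3p stood at 1173, 1356 and 1277 RPM against 145.3, 172.3 and 186.6 RPM (-2.85 ± 0.28). miR-335 and miR-675, the tested miRNAs of the list of imprinted loci, moved in opposite directions, with 2 rows called each way.

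Several miRNAs encoded in introns or as separate genes fell to a few RPM. miR-582, in an intron of the phosphodiesterase gene PDE4D, stood at 255.3, 225.3 and 157.8 RPM against 3.66, 7.04 and 8.94 RPM (-3.74 ± 0.29, adjusted p = 2.02e-05). miR-629, in an intron of the transcriptional corepressor gene TLE3, stood at 107.9, 154.3 and 177 RPM against 3.9, 0.541 and 2.65 RPM, a 62.02-fold lower mean. miR-551b stood at 261.5, 63.1 and 69 RPM against 2.24, 8.44 and 4.29 RPM (-2.98 ± 0.46). The 3 had no overlap, and miR-582* fell with its main arm by 1.69 on the log2 scale. In the miR-450a vector libraries miR-629 stood at 2594, 1730 and 2642 RPM, above both other groups, and miR-582 at 191.4, 225.4 and 202.7 RPM.

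**Figure D3:**
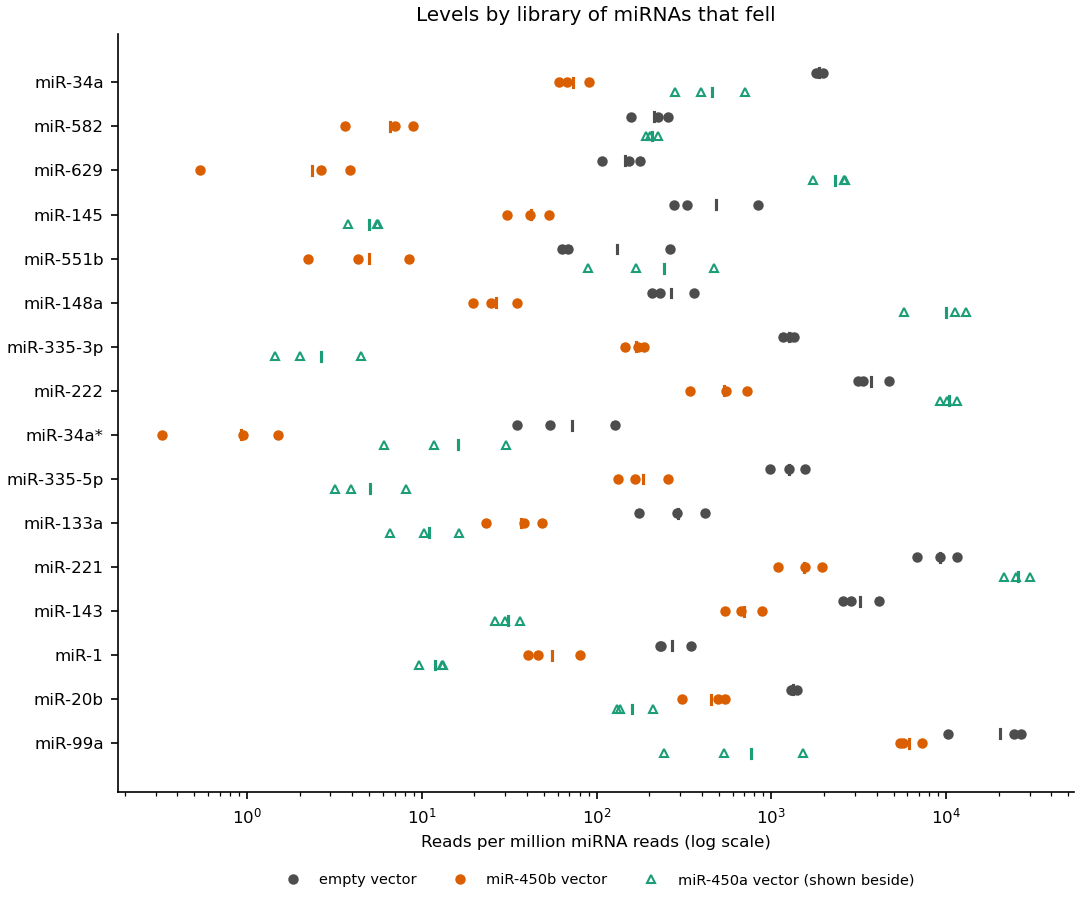
Each row is a miRNA that fell, with 1 point per library in RPM on a log axis and a short bar at the group mean. For all 16 shown the miR-450b vector libraries (orange) lie to the left of the empty vector libraries (grey); the miR-450a vector libraries (open triangles) lie on either side.

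Falls within a seed family did not always extend to its other members. miR-148a, which represses the DNA methyltransferase DNMT1, stood at 229.8, 207.4 and 358.9 RPM against 19.66, 25.01 and 35.02 RPM (-2.89 ± 0.32, adjusted p = 0.000222). Its seed sisters were not called, miR-148b at 0.37 ± 0.30 and miR-152 at 0.11 ± 0.29. Since miR-148a made up 4.13% of the reads of this seed in the controls and 0.344% with the miR-450b vector, the summed level was 6421 ± 1947 RPM and 7716 ± 194.3 RPM (SD, n = 3), with overlapping groups. A difference between the changes of seed sisters was not tested.

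miR-99a, whose family targets the kinase gene MTOR, stood at 26650, 24521 and 10186 RPM against 5442, 7259 and 5697 RPM (-1.63 ± 0.39, adjusted p = 0.0164). It made up 64.1% of the reads of its seed in the controls and 24.8% with the miR-450b vector, and miR-99b, not called at 0.72 ± 0.34, went from 35.7% to 75.1%. The sum of the seed was 31887 ± 6777 and 24694 ± 4419 RPM (SD, n = 3) and overlapped. In the miR-450a vector libraries the precursor mir-99a stood at 567, 1561 and 268.1 RPM, below both other groups. The call of miR-99a was lost without empty vector replicate 1 (-1.38, adjusted p = 0.0598) or 2 (-1.44, 0.0541) and without miR-450b vector replicate 1 (-1.55, 0.0524), and in the fit of all 9 libraries (0.0884). miR-100, at 47.5, 54.5 and 33.7 RPM against 15.74, 18.84 and 24.01 RPM, passed narrowly (-0.89 ± 0.25, adjusted p = 0.037). Its adjusted p was 0.066 and 0.088 without empty vector replicates 1 and 2, and 0.176, 0.167 and 0.0548 without miR-450b vector replicates 1, 2 and 3.

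A list of the cluster of miR-106a to miR-363 on the X chromosome, a paralog of the growth-promoting miR-17~92 cluster, had 7 tested rows. Of these 6 fell (3 with median-of-ratios scaling), against 11.5% of all rows. The list leaves out mir-92a-2 and mir-19b-2 of the same cluster, whose reads are shared with copies elsewhere. As precursors these were not called (0.60 ± 0.31 and -1.03 ± 0.38), and miR-92a was counted with the miR-17~92 cluster. miR-20b stood at 1396, 1306 and 1296 RPM against 308.9, 492.7 and 545.2 RPM (-1.59 ± 0.31, adjusted p = 0.00538) and kept its call throughout. miR-18b stood at 754.5, 335.1 and 399.2 RPM against 42.9, 120.2 and 132.2 RPM (-2.26 ± 0.46), a call lost with no filter, as was that of miR-106a* (adjusted p = 0.0536 and 0.0562). Both miR-20b and miR-18b had separate groups. The listed rows together held 0.455% to 0.909% of reads in the controls and 0.166% to 0.296% with the miR-450b vector. In the miR-450a vector libraries they held 0.14% to 0.268%, also below the controls. miR-363 overlapped, at 2597, 5180 and 927.7 RPM against 482.7, 1060 and 355.7 RPM (-2.01 ± 0.61, adjusted p = 0.0487). It was not called without empty vector replicate 1 (-1.93, adjusted p = 0.159) or 2 (-1.44, 0.111) or without miR-450b vector replicate 1 (-1.90, 0.128) or 3 (-1.68, 0.11). Nor was miR-363 called with a pseudocount of 100 RPM, no filter, no trend or median-of-ratios scaling (limma adjusted p up to 0.201 over the alternatives). The call of miR-20b* was lost with no filter and with median-of-ratios scaling. It was also lost without empty vector replicate 2 or 3 or miR-450b vector replicate 1 or 2 (limma adjusted p up to 0.137).

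miR-106a fell by 1.24 ± 0.34 on the log2 scale (adjusted p = 0.0315). Its adjusted p was 0.0762 and 0.0591 without empty vector replicates 1 and 2, and 0.128, 0.0533 and 0.0695 without miR-450b vector replicates 1, 2 and 3. It differs from the abundant miR-17 in its first base alone, so the reads of these miRNAs may not be separable. miR-17 was not called (-0.40 ± 0.31), nor was any of the 13 tested rows of the miR-17~92 cluster, whose median log2 change was -0.79 and which held 17.6% to 21.2% of reads in the controls and 17.8% to 20% with the miR-450b vector. In that cluster miR-92a lay at 0.60 and miR-20a at -0.79, the latter with separate groups but an adjusted p of 0.212.

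**Figure D4:**
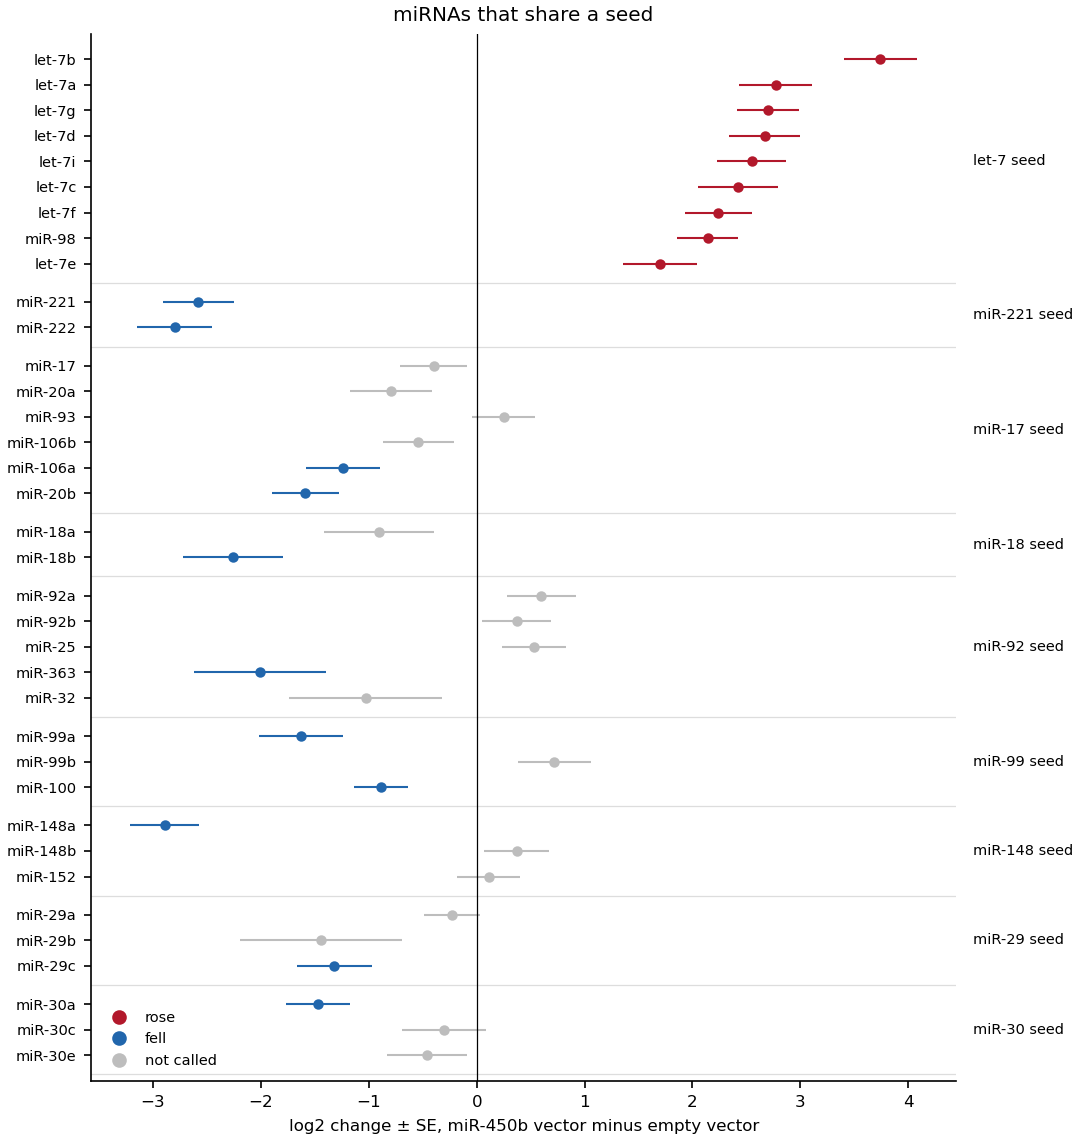
Each point is the log2 change of a miRNA (miR-450b vector minus empty vector) with its SE, grouped by shared seed; red rose, blue fell and grey was not called. All 9 miRNAs with the let-7 seed rose, whereas miR-148a and miR-99a fell beside miR-148b and miR-99b, which were not called.

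The remaining falls were smaller or spread over single hairpins. Among neural miRNAs 3 of 15 tested rows fell, miR-129-2-3p (-2.10), miR-129-5p (-1.57 ± 0.31) and miR-9* (-1.04), against 11.5% of all rows. miR-129-2-3p stood at 303.8, 68 and 74.7 RPM with the empty vector and at 23.26, 24.14 and 13.05 RPM with the miR-450b vector, so empty vector replicate 1 was far above the other controls. Without that library its log2 change was -1.45, still called, and the call was lost with no filter (adjusted p = 0.11) and with a pseudocount of 100 RPM. The call of miR-9* was lost without miR-450b vector replicate 1 (-1.04) or 2 (-0.99), with an adjusted p of up to 0.117 over the alternatives. The whole neural list of 24 rows held 2.36% to 2.92% of reads in the controls and 2.17% to 2.47% with the miR-450b vector. miR-130a*, at 943, 470.4 and 378.4 RPM against 187.2, 204.6 and 165.1 RPM, fell by 1.53 on the log2 scale. Its abundant main arm miR-130a was not called (-1.05 ± 0.43, adjusted p = 0.156). miR-625-5p stood at 279.6, 175.1 and 167.9 RPM against 64.9, 78.8 and 55.9 RPM (-1.48 ± 0.32, adjusted p = 0.00852), with no overlap. miR-30a stood at 34.84, 42.4 and 82.03 RPM against 10.03, 11.15 and 13.84 RPM (-1.47 ± 0.30, adjusted p = 0.0516 with no filter), while the other rows of the 10 tested in the miR-30 family were not called. The call of miR-130a* was lost without miR-450b vector replicate 1 or 2 (adjusted p = 0.0524 and 0.054) and with no filter (limma adjusted p up to 0.0672 over the alternatives).

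Calls of miR-22, miR-22*, miR-29c, miR-204, miR-362-3p, miR-502*, miR-579-3p and miR-95 were each lost without some library. The highest adjusted p over the alternatives was 0.137 for miR-22*, 0.0804 for miR-204, 0.142 for miR-362-3p, 0.143 for miR-502*, 0.2 for miR-579-3p and 0.0598 for miR-95. miR-22, the most abundant of them, stood at 11392, 13722 and 7720 RPM against 4509, 4855 and 1825 RPM (-1.64 ± 0.42, adjusted p = 0.0218). Its adjusted p was 0.0716 and 0.0637 without empty vector replicates 1 and 2 and 0.0551 without miR-450b vector replicate 3. miR-29c, of a family that represses collagen genes, fell by 1.32 on the log2 scale. Its adjusted p lay between 0.014 and 0.125 over the alternatives, and the call was lost without any of the libraries except empty vector replicate 3. Its sister miR-29b was not called (-1.44 ± 0.75), with empty vector replicate 1 at 5583 RPM against 430.5 and 1446 in the other controls.

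The most abundant miRNAs showed no call. miR-92a was at 54231, 96907 and 78280 RPM in the controls and at 141901, 113865 and 89240 RPM with the miR-450b vector (0.60 ± 0.32, adjusted p = 0.253). miR-199a-3p and miR-199b-3p both differed by 0.26, miR-199a-5p by -0.19, miR-10a by 0.40, miR-103 by 0.12 and miR-21 by 0.26 on the log2 scale. miR-29a was lower in all 3 vector libraries but by only -0.23 ± 0.26 (adjusted p = 0.552). A p above the threshold does not show that these levels were equal.

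No row was called in the miR-106b~25 cluster (6 tested, median log2 change 0.53), the miR-15 and miR-16 family (9, -0.47), the miR-183 cluster (6, -0.11), the miR-181 family (6, -0.01), the miR-23, miR-27 and miR-24 group (9, 0.00) or the miR-26 family (5, -0.01). Nor was any called among miRNAs of the HOX clusters (9 tested, median 0.24) or those linked to energy metabolism (11, -0.21), where miR-103 and miR-378 (0.37) were most abundant. With median-of-ratios scaling 1 row of the miR-106b~25 cluster and 1 of the HOX miRNAs rose. miR-200c was the tested row of the epithelial miR-200 family, at 50.2, 79.3 and 56.4 RPM against 139.3, 148.4 and 77 RPM (0.84 ± 0.33, adjusted p = 0.141). Among miRNAs of carcinoma and inflammation 0 of 4 tested rows were called, and of miR-192, miR-194 and miR-215 0 of 2. Of the 14 tested rows of the X-linked CLCN5 cluster 2 fell (1 with median-of-ratios scaling), miR-362-3p (-1.68) and miR-502*, against 11.5% of all rows.

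Of the lists for other cell types not yet described, none had a call. Endothelial miR-126 stood at 1525, 725.6 and 659.6 RPM with the empty vector and at 646.7, 885.8 and 429.8 RPM with the miR-450b vector, with overlapping groups, and was not called on either arm (-0.52 and -0.02). The blood list had no call in 4 tested rows and held 0.016% to 0.0383% of reads in the 6 libraries. Liver miR-122 was at 4.44 to 18.66 RPM. None of the 16 rows of the pluripotency list passed the filter.

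Among precursors 51 of 256 rows were called (19.9%), 17 higher (6.64%) and 34 lower (13.3%), and 81 (31.6%) had groups without overlap. For 447 of 448 precursors with 1 gene copy the value equalled the sum of the mature rows within 1%, so these are largely the same reads, and copies of a miRNA share them. Of the 255 precursors, 253 matched a gene in the RefSeq annotation of GRCh38.p14. With neighbours joined at gaps of up to 10000 bases, 36 groups held 2 or more tested precursors and 12 of them any call. In 3 groups every precursor rose, in 3 every precursor fell, and in 2 there was a rise beside a fall.

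On chromosome 21, let-7c rose by 2.41 ± 0.36 and its neighbour mir-99a fell by 1.58 on the log2 scale (adjusted p = 0.00872). The let-7c* arm, which belongs to this hairpin alone, had risen as well. The call of precursor mir-99a was lost without empty vector replicate 1 (-1.33, adjusted p = 0.0553). On chromosome 11, let-7a-2 rose by 2.77 ± 0.34 beside mir-100 (-0.89 ± 0.25, adjusted p = 0.0215), though the reads of let-7a-2 are shared with its other copies. The call of precursor mir-100 was lost without empty vector replicate 1 (adjusted p = 0.0553) or 2 (0.0643) and without miR-450b vector replicate 1 (0.107) or 2 (0.1). On chromosome 19, let-7e rose by 1.68 ± 0.33 between mir-99b (0.71 ± 0.33) and mir-125a (0.02 ± 0.41), which were not called.

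let-7a-1, let-7f-1 and let-7d on chromosome 9, let-7a-3 and let-7b on chromosome 22, and mir-98 and let-7f-2 on the X chromosome all rose. The let-7a copies share their reads, as do let-7f-1 and let-7f-2, so these rises are not separate. let-7d, let-7b and mir-98 have 1 gene copy each. The pairs mir-221 and mir-222, mir-143 and mir-145, and mir-133a-1 and mir-1-2 all fell, though the reads of mir-133a-1 and mir-1-2 are shared with their other copies. Of the 35 precursors on the X chromosome 4 rose and 6 fell (17.1%), and of the 218 elsewhere 13 rose and 28 fell (12.8%). A test of that difference was not made. Precursors called while none of their mature rows was were mir-873 (-1.18 ± 0.21, at 23.17, 15.49 and 17.51 RPM against 1.06, 2.17 and 5 RPM), mir-876 (-1.09), mir-499 (-0.86), mir-1245 (0.98 ± 0.19) and mir-1468 (0.73), all of low level. mir-873 and mir-1245 kept their calls in every alternative that tested them. However, mir-873 passed the filter only through the controls (mean 18.72 RPM, against 2.744 with the miR-450b vector), as did mir-876 (18.25 against 2.366). mir-1245 passed only through the miR-450b vector group (19.14 RPM, against 4.771 in the controls). The call of precursor mir-876 was lost without empty vector replicate 1 (-0.70, adjusted p = 0.0569) and without miR-450b vector replicate 1 (0.0672) or 2 (0.0551). That of precursor mir-499 was lost without empty vector replicate 1 (adjusted p = 0.0695) or 3 (0.0928) and without miR-450b vector replicate 1 (0.153) or 2 (0.162). That of precursor mir-1468 was lost without empty vector replicate 1 (adjusted p = 0.113) or 2 (0.0515) and without miR-450b vector replicate 1 (0.19) or 2 (0.108).

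**Figure D5:**
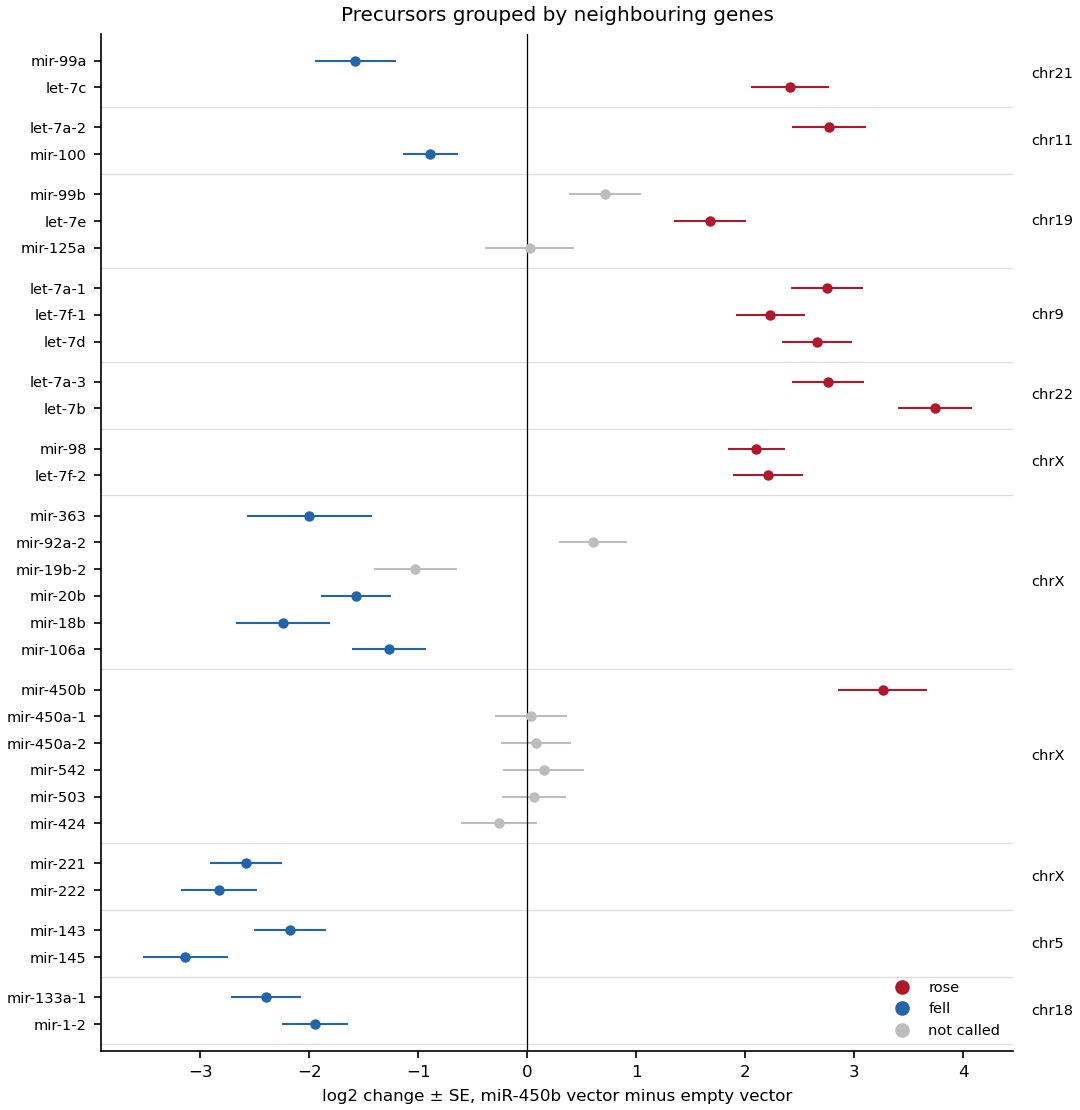
Each point is the log2 change of a precursor (miR-450b vector minus empty vector) with its SE, grouped by neighbouring genes on the chromosome given at the right. let-7 precursors lie above 0 in every group, also beside mir-99a and mir-100, and mir-450b rose while its 5 neighbours were not called.

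The balance between the arms of a hairpin was tested in 121 hairpins with both arms at 10 RPM or more. None was called by limma at an adjusted p of 0.05 (0%), while 21 (17.4%) had an unadjusted p under 0.05 and 20 (16.5%) had groups that did not overlap. Chosen after their values were seen, miR-625 went from 60.6% of reads on its 5p arm to 33.24% (-1.54, adjusted p = 0.25). miR-30a went from 60% to 35.18% on its main arm, and miR-362 from 38.26% to 60.1% on its 5p arm. In simulated data of these 121 ratios log2 changes of 2 were recovered in 53.3% of cases and those of 1 in 6.7%.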

How the data were processed

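Small RNA of A2780 cells was sequenced as 50-cycle single reads after TRIzol extraction, per the labels' protocols. The authors deposited fractions: a value is the part of a library's miRNA reads that belongs to 1 mature miRNA or precursor, per the file headers. For these shares the aligner, annotation and build were not given in the sources used here. TopHat and Cuffdiff are named in the submitters' processing notes, without a role. With no read totals, the depth is unknown, no interval was computed and no count test was run. A share can also change because others change.

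Shares were multiplied by 1000000 (RPM), and log2(RPM + 10) of rows averaging 10 RPM or more in the 6 libraries was fitted with limma 3.58.1 (intensity trend, R 4.3.3), two-sided, with Benjamini-Hochberg adjustment over all 365 mature or 256 precursor rows and a threshold of 0.05. Log2 changes understate those of low miRNAs. Arm ratios were fitted likewise. The members, the lists of miRNAs and the rule for those named were chosen with earlier results of these data known. The rule took the cluster of miR-450b, the 12 largest rises and falls with separate groups, the 10 most abundant miRNAs, and from each list the 2 most abundant and the called member with the largest change; some others were named after their values were seen. Table names were matched to 55 RefSeq sequences by hand. The fit was tested on simulated data of 365 mature rows, with 45 rows changed by a log2 of 1 and 45 by 2. It found 46.7% of the changes of 1 and 88.9% of those of 2 and made 8 false calls. In that simulation the false calls were thus a larger share of all calls than the threshold of 0.05.

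Each count was repeated with pseudocounts of 1 and 100 RPM, without a filter, with a 100 RPM filter, no trend, all 9 libraries, a replicate block, median-of-ratios scaling and each library left out. Figures used Python 3.11.15 and matplotlib 3.10.9. Not analysed here were 12 mRNA and 4 PAR-CLIP samples.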

Additional observations from a re-analysis of the deposited data

How the results depend on the processing

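Of the 59 mature calls, 36 (15 rises and 21 falls) held in every alternative that tested them. The number called was 59 with a pseudocount of 1 RPM, 50 with 100 RPM, 64 with no filter (992 rows tested), 55 without the trend, 57 in the fit of all 9 libraries and 54 with median-of-ratios scaling, and 46 to 64 with a library left out. A mean of at least 100 RPM gave 38 mature calls among 217 rows and 31 precursor calls among 186 rows, since fewer rows were tested; the precursor calls numbered 40 to 64 with a library left out. For the balance between arms, where no hairpin was called, a pseudocount of 100 RPM gave 8 calls, no filter 10 among 360 pairs and the fit of all 9 libraries 1, and leaving out a library gave 0 to 2, the 2 without empty vector replicate 1; the cause was not tested. Median-of-ratios scaling was not run on arm ratios, which it leaves unscaled apart from the pseudocount. The labels do not state that replicate numbers pair the samples. Deviations from the group means correlated at -0.322, -0.082 and 0.303 between libraries of the same number. Between libraries of different numbers they correlated at -0.448 to 0.52, so the correlations cannot decide whether samples were paired. With the replicate block 52 mature, 46 precursor and 0 arm calls were made. Over 170 named results and 2329 alternative values, 203 lost their call, 4 gained one and no called value changed sign, while 52 uncalled values changed sign and stayed uncalled. The unknown depth limits what low rows can show.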

Other observations

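One viral row passed the filter, hiv1-miR-TAR-3p, named for the TAR hairpin at the start of HIV-1 transcripts. It stood at 208.7, 203 and 219.1 RPM with the empty vector, at 115.1, 133.7 and 316.8 RPM with the miR-450b vector and at 275.3, 155.4 and 391.7 RPM with the miR-450a vector. The groups overlapped, and limma gave a log2 change of -0.29 ± 0.39 between the miR-450b vector and the empty vector (adjusted p = 0.622).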
